A study of Mus musculus with 4 samples.

Results

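The 35 genes described here act in S phase and mitosis. They were taken as a fixed list of gene symbols, matched to the symbol column of the count tables, and all 35 were found among 32285 genes. Of these, 27 act mainly in mitosis and are called the mitosis genes below, and 8 act in DNA replication or repair and are called the S-phase genes (Mcm3, Mcm5, Mcm6, Pcna, Rrm2, Pola1, Brca1 and Brip1). They were measured by single-nucleus RNA sequencing of mouse brain in 4 libraries. The libraries crossed the way the brain was taken with the way the nuclei were treated, to separate the effects of tissue harvest and of fixation. All mice were wild-type C57BL/6, aged 10 weeks, and the tissue was brain without cerebellum, rinsed and frozen on dry ice for 10 min, of which at most 50 mg went into an extraction. The groups were nuclei fixed in 80% methanol at -20 °C for 30 min, or left unfixed, from a brain removed by rapid craniotomy under isoflurane anaesthesia (labelled in vivo), and nuclei fixed in the same way, or left unfixed, from a brain removed after cervical dislocation (post-mortem). Each of the 4 groups was 1 library. Differences between libraries therefore have no replicate check and no test, each interval given for a level, ratio or share covers counting error only, and harvest cannot be told apart from the animal or the piece of tissue. Whether 1 brain gave both the fixed and the unfixed nuclei is not stated in the labels.

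Dividing cells switch these genes on in waves. Replication proteins such as the Mcm helicase subunits and the sliding clamp Pcna are made for S phase, and kinetochore, spindle and cytokinesis proteins are made for mitosis. Neurons leave the cell cycle for good when they form. In the adult mouse forebrain the best-known dividing cells are the progenitors that give rise to neuroblasts beside the lateral ventricles and the oligodendrocyte precursors spread through the tissue, while mature oligodendrocytes have left the cycle. Transcription of many mitosis genes is held back outside the cycle by the DREAM complex, which binds a promoter element called CHR, often close to CCAAT boxes bound by NF-Y.

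The promoters of 5 genes on which the results turn are shown because they differ in these elements: Top2a, Cenpf and Ccnb2 as mitosis genes with both elements, Anln as a mitosis gene with CHR alone, and Pola1 as a replication gene with CCAAT alone. The windows run from 250 bases before to 50 bases after the RefSeq transcript start, 5′ to 3′ along the gene (RefSeq, mouse build GRCm38.p6). Capitals mark TTTGAA (the CHR) and CCAAT on either strand, TTCAAA and ATTGG being the same motifs on the opposite strand.
Top2a, chr11:99024140-99024439, minus strand: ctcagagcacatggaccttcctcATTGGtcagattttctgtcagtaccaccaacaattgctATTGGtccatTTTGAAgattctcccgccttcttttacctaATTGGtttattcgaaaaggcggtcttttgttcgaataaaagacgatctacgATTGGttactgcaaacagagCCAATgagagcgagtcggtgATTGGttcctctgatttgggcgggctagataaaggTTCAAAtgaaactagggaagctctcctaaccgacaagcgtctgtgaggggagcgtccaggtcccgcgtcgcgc
Cenpf, chr1:189688037-189688336, minus strand: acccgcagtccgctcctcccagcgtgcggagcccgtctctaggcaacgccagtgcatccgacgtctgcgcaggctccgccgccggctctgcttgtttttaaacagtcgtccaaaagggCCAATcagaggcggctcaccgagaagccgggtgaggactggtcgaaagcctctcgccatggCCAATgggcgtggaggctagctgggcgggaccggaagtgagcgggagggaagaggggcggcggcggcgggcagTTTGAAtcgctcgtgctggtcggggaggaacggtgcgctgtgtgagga
Ccnb2, chr9:70421505-70421804, minus strand: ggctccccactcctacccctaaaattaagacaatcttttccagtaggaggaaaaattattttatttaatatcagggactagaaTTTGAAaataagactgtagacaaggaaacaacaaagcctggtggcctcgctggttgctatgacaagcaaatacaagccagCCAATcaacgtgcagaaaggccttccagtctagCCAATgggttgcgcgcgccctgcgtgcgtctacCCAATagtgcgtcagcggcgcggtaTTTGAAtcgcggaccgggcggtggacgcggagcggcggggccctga
Anln, chr9:22389157-22389456, minus strand: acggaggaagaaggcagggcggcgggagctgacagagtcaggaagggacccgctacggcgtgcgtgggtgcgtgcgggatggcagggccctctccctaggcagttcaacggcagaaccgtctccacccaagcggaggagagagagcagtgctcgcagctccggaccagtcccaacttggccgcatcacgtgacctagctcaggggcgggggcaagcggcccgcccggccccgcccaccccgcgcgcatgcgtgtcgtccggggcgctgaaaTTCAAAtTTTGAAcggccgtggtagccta
Pola1, chrX:93632106-93632405, minus strand: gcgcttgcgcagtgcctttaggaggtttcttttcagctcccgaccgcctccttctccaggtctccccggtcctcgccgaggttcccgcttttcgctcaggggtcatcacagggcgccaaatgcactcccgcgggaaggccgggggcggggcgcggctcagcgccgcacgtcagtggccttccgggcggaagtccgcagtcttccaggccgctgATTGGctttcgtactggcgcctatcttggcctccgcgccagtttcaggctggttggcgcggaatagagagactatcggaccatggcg

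A RefSeq promoter was found for 32 of the 35 genes (Aurkb, Ccna2 and Tpx2 had no match), counting a gene once when any of its promoters held the motif. TTTGAA was present in 19 of 24 mitosis genes and in 0 of 8 S-phase genes, against 20.2% of all 27025 genes in the promoter table. CCAAT was present in 17 of 24 mitosis genes and in 8 of 8 S-phase genes, against 41.1% of all genes, and 14 of 24 mitosis genes held both motifs, against 8.97%. A match to one motif can share at most 1 end base with a match to the other. These are matches of letters in a fixed window, not measured binding sites.

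After filtering, 6811 nuclei remained in the anaesthetised methanol library, 15081 in the anaesthetised unfixed, 9802 in the post-mortem methanol and 12378 in the post-mortem unfixed. Together the kept nuclei of a library held between 50967320 and 63884292 unique molecular identifiers (UMIs, one per captured transcript). Median depth was higher after methanol, at 7822 and 6288 UMIs per nucleus in the anaesthetised and post-mortem methanol libraries, against 3020 and 3779 in the unfixed ones. Any pair of libraries shared 41 to 148 kept barcodes, at most 1.2% of the smaller library. Levels below are CPM, a gene's UMI count scaled to the total UMIs of the kept nuclei of that library or class. The kit primes at the 3′ end of transcripts and nuclei hold unspliced RNA, so levels are compared between libraries or classes and not between genes.

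The list was read at low depth. Of the 35 genes, 30 had 100 or more UMIs over all 4 libraries, and Cdk1, Aurkb, Mcm3, Bub1 and Cdc20 had only 51, 47, 60, 61 and 66. The 27 mitosis genes together gave 61.0 CPM in the anaesthetised methanol library, 80.3 in the anaesthetised unfixed, 55.3 in the post-mortem methanol and 63.7 in the post-mortem unfixed, and the 8 S-phase genes gave 73.7 CPM in the anaesthetised methanol library, 61.4 in the anaesthetised unfixed, 72.8 in the post-mortem methanol and 59.8 in the post-mortem unfixed. Most of the S-phase sum was Pola1, the catalytic subunit of the polymerase that primes replication, which had 11937 UMIs and lay at 58.7 CPM in the anaesthetised methanol library, 47.5 in the anaesthetised unfixed, 57.5 in the post-mortem methanol and 45.1 in the post-mortem unfixed. Anln, the actin-binding scaffold of the cleavage furrow, had 3326 UMIs, the most of any mitosis gene. Few of the UMIs of either gene lay in nuclei rich in mitosis genes. A sum over a library cannot tell fewer cells of a type from less RNA per cell.

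**Figure D1:**
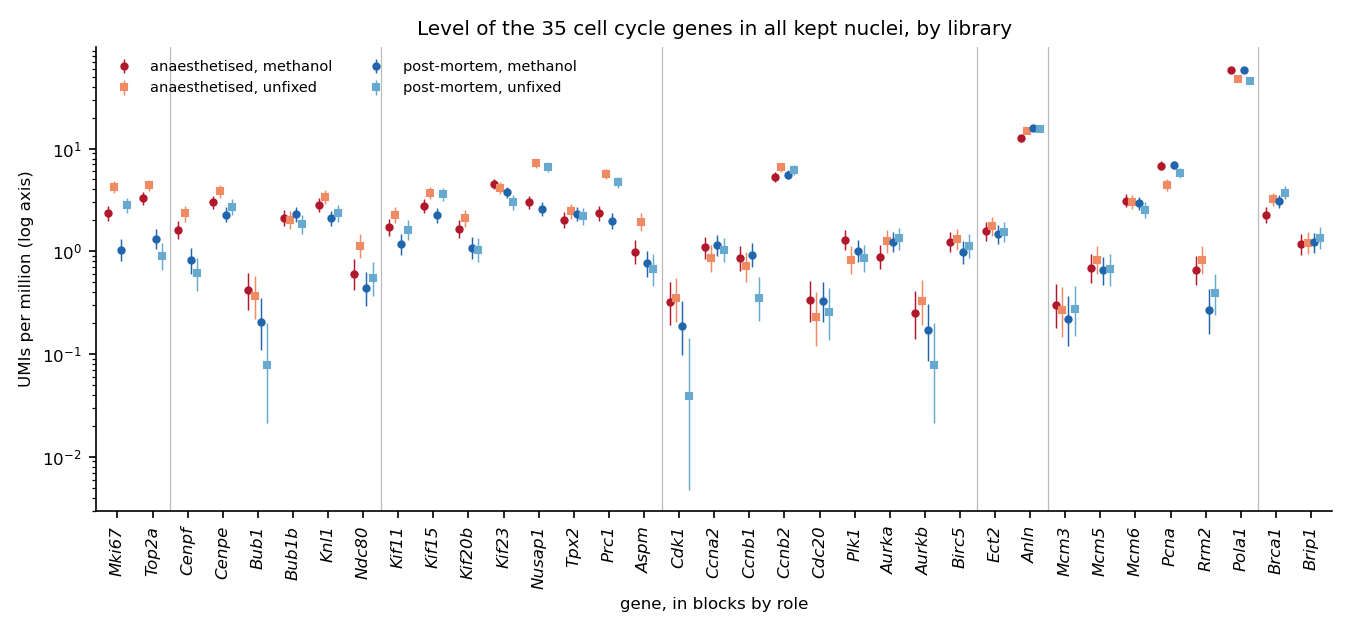
Level of each of the 35 genes in CPM of all kept nuclei (log axis), with exact 95% counting intervals, in the 4 libraries; vertical lines divide the blocks by role. Pola1 lies between 45.1 and 58.7 CPM in every library, Nusap1 and Prc1 are lower in both methanol libraries, and Top2a and Rrm2 are higher in both anaesthetised libraries.

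Methanol fixation was compared with no fixation within each harvest. A gene was counted when it was at least 2-fold different in the same direction in both pairs and had 100 or more UMIs. Of the 30 genes of the list that could be counted, 2 were lower after methanol in both pairs, Nusap1 and Prc1, against 5.48% of all 17908 genes, and 0 were higher, against 0.48%. The 2 genes were 6.67% of the 30, a share near that of all genes, so fixation did not set the list apart by this count. Nusap1, which ties microtubules together around chromosomes, was at 3.0 CPM in the anaesthetised methanol library, 7.20 in the anaesthetised unfixed, 2.60 in the post-mortem methanol and 6.61 in the post-mortem unfixed. Both methanol values lay below both unfixed values, and the log2 ratio was -1.26 (95% interval -1.53 to -1.0) in the anaesthetised pair and -1.35 (95% interval -1.62 to -1.08) in the post-mortem pair. Prc1, which crosslinks the antiparallel microtubules of the spindle midzone, was at 2.36 CPM in the anaesthetised methanol library, 5.69 in the anaesthetised unfixed, 1.99 in the post-mortem methanol and 4.69 in the post-mortem unfixed, with log2 ratios of -1.27 (95% interval -1.57 to -0.97) and -1.24 (95% interval -1.56 to -0.92).

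The lower counts of these 2 genes were also seen outside nuclei rich in mitosis genes. In nuclei with fewer than 5 of the other mitosis genes, Nusap1 was at 2.32 CPM in the anaesthetised methanol library, 5.73 in the anaesthetised unfixed, 2.33 in the post-mortem methanol and 6.34 in the post-mortem unfixed, and Prc1 was at 1.36 CPM in the anaesthetised methanol library, 4.34 in the anaesthetised unfixed, 1.46 in the post-mortem methanol and 4.38 in the post-mortem unfixed. In those nuclei the log2 ratio of Prc1 was -1.66 in the anaesthetised and -1.58 in the post-mortem pair. The whole annotated span of Prc1 (chr7:80294450-80316259, GRCm38, GENCODE M21) lies inside Rccd1 on the opposite strand, and Nusap1 overlaps Oip5 on the opposite strand over 172 bases. Whether the counting used strand is not given in the sources used here, so reads of Prc1 and Rccd1 may not be separable. Rccd1 itself was at 19.4 CPM in the anaesthetised methanol library and 23.5 in the anaesthetised unfixed, and at 20.5 in the post-mortem methanol and 23.8 in the post-mortem unfixed. The part of this overlap in the Prc1 values was not tested.

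Mki67, the nuclear proliferation antigen that coats mitotic chromosomes, was also lower after methanol without reaching 2-fold in both pairs. It was at 2.36 CPM in the anaesthetised methanol library, 4.26 in the anaesthetised unfixed, 1.03 in the post-mortem methanol and 2.81 in the post-mortem unfixed, with log2 ratios of -0.85 (95% interval -1.17 to -0.54) in the anaesthetised and -1.44 (95% interval -1.88 to -1.01) in the post-mortem pair. Outside nuclei with 5 or more of the other mitosis genes it was at 1.09 CPM in the anaesthetised methanol library, 2.75 in the anaesthetised unfixed, 0.862 in the post-mortem methanol and 2.71 in the post-mortem unfixed. There both methanol values lay below both unfixed values, and the harvest difference was 0.34 on the log2 scale between the methanol libraries and 0.02 between the unfixed ones. The midzone kinesin Kif23, which helps to complete cytokinesis, did not fall after methanol, with log2 ratios of 0.14 (95% interval -0.13 to 0.40) and 0.32 (95% interval 0.03 to 0.63). Over the 30 genes the median log2 ratio of methanol over unfixed was -0.29 in the anaesthetised and -0.05 in the post-mortem pair, and over all genes it was -0.05 and -0.04.

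Harvest under anaesthesia was compared with post-mortem harvest within each nuclear treatment, in the same 4 libraries as the fixation pairs. Top2a and Rrm2 were at least 2-fold higher in the anaesthetised library of both pairs, 2 of 30 genes against 0.597% of all genes, and 0 of 30 were lower, against 0.704%. Top2a, the topoisomerase that untangles sister chromatids, was at 3.27 CPM in the anaesthetised methanol library, 4.38 in the anaesthetised unfixed, 1.33 in the post-mortem methanol and 0.903 in the post-mortem unfixed. Its log2 ratio of anaesthetised over post-mortem was 1.29 (95% interval 0.92 to 1.68) for methanol-fixed and 2.27 (95% interval 1.82 to 2.77) for unfixed nuclei. Rrm2, the subunit of ribonucleotide reductase made for S phase, was at 0.654 CPM in the anaesthetised methanol library, 0.830 in the anaesthetised unfixed, 0.266 in the post-mortem methanol and 0.392 in the post-mortem unfixed, with log2 ratios of 1.27 (95% interval 0.44 to 2.21) and 1.06 (95% interval 0.28 to 1.92) from only 119 UMIs in all. Cenpf, a large outer kinetochore protein, was at 1.63 CPM in the anaesthetised methanol library, 2.33 in the anaesthetised unfixed, 0.814 in the post-mortem methanol and 0.608 in the post-mortem unfixed, just under 2-fold in 1 pair, with log2 ratios of 0.99 (95% interval 0.50 to 1.51) and 1.92 (95% interval 1.36 to 2.56). Both anaesthetised values of all 3 genes lay above both post-mortem values. The median log2 ratio over the 30 genes was 0.23 for methanol-fixed and 0.24 for unfixed nuclei, against -0.12 and -0.13 over all genes. Outside nuclei with 5 or more of the other mitosis genes, Top2a was at 0.354 CPM in the anaesthetised methanol library, 1.01 in the anaesthetised unfixed, 0.251 in the post-mortem methanol and 0.294 in the post-mortem unfixed, and the log2 ratio was 0.49 (95% interval -0.51 to 1.53) for methanol-fixed and 1.74 (0.92 to 2.71) for unfixed nuclei. Rrm2 there had log2 ratios of 0.35 and 0.29, with intervals that included 0.

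No other gene of the list reached 2-fold between harvests in both pairs. Aspm, Ndc80 and Kif20b did so between the unfixed libraries only, with log2 ratios of 1.52, 1.04 and 1.01, against 0.36, 0.46 and 0.62 between the methanol libraries, and Mki67 between the methanol libraries only (1.19, with 0.60 between the unfixed ones). Among kinetochore genes, Cenpe, the kinesin that moves chromosomes to the spindle equator, was at 3.0 CPM in the anaesthetised methanol library, 3.84 in the anaesthetised unfixed, 2.27 in the post-mortem methanol and 2.71 in the post-mortem unfixed. Knl1, the scaffold that recruits the checkpoint, was at 2.83 CPM in the anaesthetised methanol library, 3.40 in the anaesthetised unfixed, 2.10 in the post-mortem methanol and 2.33 in the post-mortem unfixed, and the checkpoint kinase Bub1b was at 2.11 CPM in the anaesthetised methanol library, 2.03 in the anaesthetised unfixed, 2.30 in the post-mortem methanol and 1.82 in the post-mortem unfixed. The first 2 were higher in the anaesthetised library of each pair by less than 2-fold, and the interval of each log2 ratio of Bub1b included 0. Of the spindle genes, Kif23 was at 4.53 CPM in the anaesthetised methanol library, 4.11 in the anaesthetised unfixed, 3.76 in the post-mortem methanol and 3.0 in the post-mortem unfixed, and Kif15, a plus-end kinesin that backs up Kif11 in holding the spindle poles apart, was at 2.78 CPM in the anaesthetised methanol library, 3.70 in the anaesthetised unfixed, 2.24 in the post-mortem methanol and 3.61 in the post-mortem unfixed.

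Among the kinases, cyclins and passenger proteins, Ccnb2, a mitotic cyclin, was at 5.30 CPM in the anaesthetised methanol library, 6.54 in the anaesthetised unfixed, 5.59 in the post-mortem methanol and 6.18 in the post-mortem unfixed. Aurka, the kinase of the spindle poles, was at 0.888 CPM in the anaesthetised methanol library, 1.25 in the anaesthetised unfixed, 1.24 in the post-mortem methanol and 1.33 in the post-mortem unfixed. Birc5, the survivin subunit of the chromosomal passenger complex, was at 1.24 CPM in the anaesthetised methanol library, 1.31 in the anaesthetised unfixed, 0.986 in the post-mortem methanol and 1.14 in the post-mortem unfixed, and Ccna2, the cyclin of S and G2 phase, was at 1.09 CPM in the anaesthetised methanol library, 0.868 in the anaesthetised unfixed, 1.14 in the post-mortem methanol and 1.04 in the post-mortem unfixed. For these 4 genes the largest log2 ratio in any pair was that of Aurka in the anaesthetised pair, at -0.50 for methanol over unfixed. Of the cytokinesis genes, Ect2, which activates RhoA at the furrow, was at 1.56 CPM in the anaesthetised methanol library, 1.76 in the anaesthetised unfixed, 1.47 in the post-mortem methanol and 1.55 in the post-mortem unfixed, and Anln was at 12.6 CPM in the anaesthetised methanol library, 14.9 in the anaesthetised unfixed, 15.8 in the post-mortem methanol and 15.6 in the post-mortem unfixed. The sliding clamp Pcna was at 6.84 CPM in the anaesthetised methanol library, 4.46 in the anaesthetised unfixed, 6.92 in the post-mortem methanol and 5.77 in the post-mortem unfixed, higher in the methanol library of each pair with log2 ratios of 0.62 and 0.26.

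The other S-phase genes with the most UMIs stayed within 2-fold in every pair. Mcm6, a subunit of the replicative helicase, was at 3.10 CPM in the anaesthetised methanol library, 3.03 in the anaesthetised unfixed, 2.94 in the post-mortem methanol and 2.51 in the post-mortem unfixed. Mcm5, another subunit, was at 0.687 CPM in the anaesthetised methanol library, 0.830 in the anaesthetised unfixed, 0.657 in the post-mortem methanol and 0.667 in the post-mortem unfixed. Brca1, which acts in repair of broken forks, was at 2.26 CPM in the anaesthetised methanol library, 3.20 in the anaesthetised unfixed, 3.08 in the post-mortem methanol and 3.73 in the post-mortem unfixed, and its partner helicase Brip1 was at 1.17 CPM in the anaesthetised methanol library, 1.22 in the anaesthetised unfixed, 1.22 in the post-mortem methanol and 1.35 in the post-mortem unfixed.

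Bulk levels mixed a low, wide signal with a small set of nuclei that held many of the genes at once. Each nucleus was scored by how many of the 27 mitosis genes had at least 1 UMI in it. Most nuclei held 0 or 1, and counts fell steeply to 4 genes, beyond which a separate tail ran up to 22. With a limit of 3 genes, 84 of 6811 nuclei (1.23%) passed in the anaesthetised methanol library, 118 of 15081 (0.782%) in the anaesthetised unfixed, 50 of 9802 (0.510%) in the post-mortem methanol and 26 of 12378 (0.210%) in the post-mortem unfixed. Among excitatory-gated nuclei, a class that should not divide, 21 of 1892 (1.11%) in the anaesthetised methanol library, 7 of 2093 (0.334%) in the anaesthetised unfixed, 12 of 1797 (0.668%) in the post-mortem methanol and 5 of 1527 (0.327%) in the post-mortem unfixed passed the same limit. Their median depth was 13299, 5743, 10173 and 7077 UMIs in these libraries in the same order. These shares are read as background.

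A limit of 6 genes, chosen after this distribution was seen, passed 124 nuclei and none of the excitatory-gated ones. The count was 0 of 1892 excitatory-gated nuclei in the anaesthetised methanol library (a share of up to 0.159% is allowed), 0 of 2093 in the anaesthetised unfixed (0.143%), 0 of 1797 in the post-mortem methanol (0.167%) and 0 of 1527 in the post-mortem unfixed (0.196%). The 124 nuclei are called mitosis-gene-rich nuclei here. They made up 36 of 6811 nuclei of the anaesthetised methanol library (0.529%, exact 95% Clopper-Pearson interval 0.370 to 0.731), 67 of 15081 of the anaesthetised unfixed (0.444%, 0.344 to 0.564), 15 of 9802 of the post-mortem methanol (0.153%, 0.0857 to 0.252) and 6 of 12378 of the post-mortem unfixed (0.0485%, 0.0178 to 0.105). The 2 anaesthetised intervals lay above the 2 post-mortem ones. With every nucleus thinned to 1000 UMIs, which left out 351, 2756, 694 and 1585 shallower nuclei in the same order of libraries, the limit of 3 genes gave 0.526% in the anaesthetised methanol library, 0.519% in the anaesthetised unfixed, 0.165% in the post-mortem methanol and 0.0556% in the post-mortem unfixed.

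Other measures were taken beside these shares. The neuroblast gate held 128 of 6811 nuclei in the anaesthetised methanol library and 74 of 15081 in the anaesthetised unfixed, against 74 of 9802 in the post-mortem methanol and 37 of 12378 in the post-mortem unfixed. Among barcodes of at most 100000 UMIs that were called doublets and left out, 16 of 837 in the anaesthetised methanol library, 18 of 2773 in the anaesthetised unfixed, 1 of 971 in the post-mortem methanol and 10 of 1922 in the post-mortem unfixed also held 6 or more mitosis genes. Leaving out the barcodes over 100000 UMIs, all from the post-mortem methanol library, lowered the share of that library. With them kept, 20 of 9809 nuclei there held 6 or more mitosis genes (0.204%, 0.125 to 0.315). The part of these measures in the harvest difference was not tested. The labels give no region of the brain for the tissue of an extraction, so the piece taken and the harvest cannot be told apart.

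**Figure D2:**
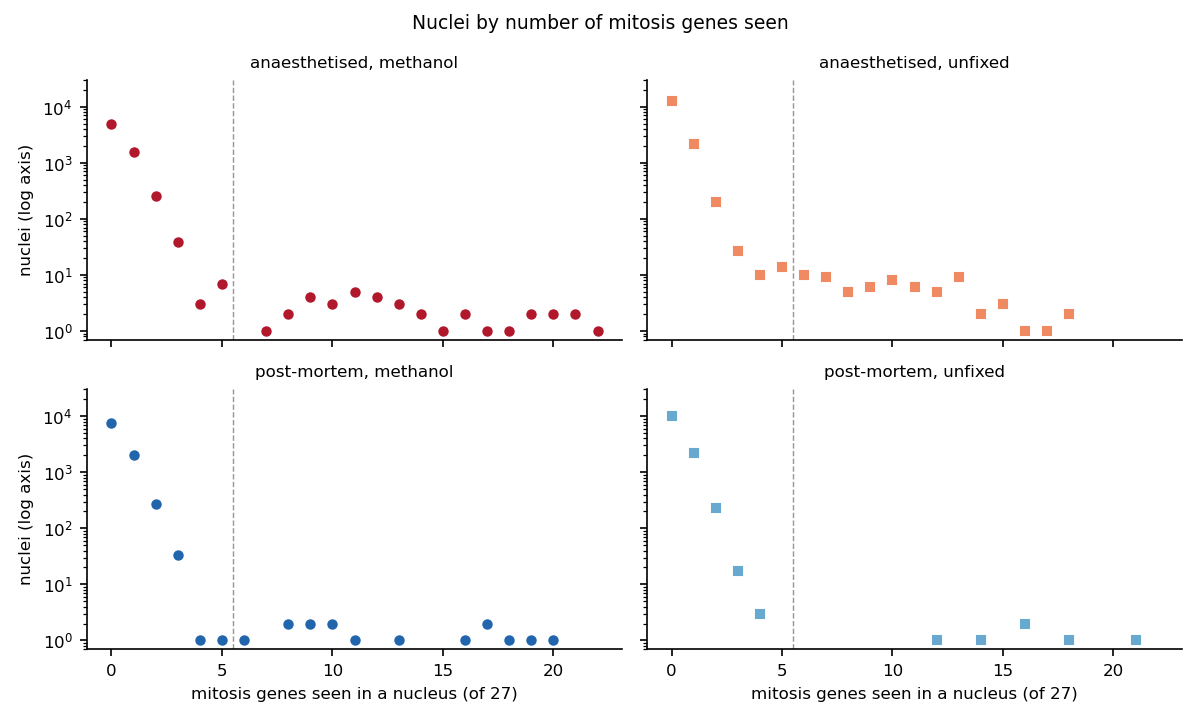
Number of nuclei (log axis) against the number of the 27 mitosis genes seen in a nucleus, for each library; counts of 0 are not drawn, and the dashed line marks the limit of 6 genes. The tail past the line holds 36 and 67 nuclei in the anaesthetised methanol and unfixed libraries, against 15 and 6 in the post-mortem methanol and unfixed ones.

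The genes differed in how far they kept to such nuclei. For each gene, nuclei were chosen by holding 5 or more of the other mitosis genes, so that the gene played no part in the choice, which gave 132 to 146 nuclei. Top2a was the most concentrated, with 81.2% of its UMIs in these nuclei and a range over libraries of 67.4 to 89.2%. Its level was 944 CPM in them, against 0.460 CPM in all others. The master kinase Cdk1 followed with 78.4% of its 51 UMIs, the checkpoint kinase Bub1 with 68.9%, Cenpf with 68.8% and the passenger kinase Aurkb with 59.6%. With 3 or more of the other mitosis genes asked for, the share was 87.7% for Top2a and 71.1% for Cenpf.

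A middle group had a smaller but still large part of its UMIs in these nuclei. It held the microtubule-binding kinetochore protein Ndc80 (47.0%), the spindle pole protein Aspm (44.2%), the bipolar spindle motor Kif11 (37.0%), Knl1 (33.4%), Rrm2 (32.8%), Ect2 (30.8%), the anaphase activator Cdc20 (30.3%), Mki67 (29.9%), the cytokinesis kinesin Kif20b (29.7%), Cenpe (22.7%) and Prc1 (22.6%). Mki67 varied most among the better-counted of them, with 53.9% in the library where its share was highest and 3.50% where it was lowest. In the chosen nuclei Mki67 was at 418 CPM, against 1.77 CPM in all others.

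The remaining genes had smaller shares in these nuclei, though each was at a higher CPM there than in the rest. Aurka had 18.9% of its UMIs in such nuclei, Kif15 18.1%, Brip1 17.9%, Kif23 17.8%, Tpx2 17.4%, Birc5 15.6% and Mcm3 11.7%. Nusap1 had 14.1%, the mitotic cyclin Ccnb1 12.7%, Bub1b 9.55%, Ccna2 8.47%, Brca1 7.99%, the mitotic kinase Plk1 5.68%, Mcm5 5.00%, Ccnb2 3.77%, Anln 3.25% and Mcm6 3.04%. Pola1 had 1.37% and Pcna 1.16%. Even so, Pola1 was at 332 CPM in the chosen nuclei, against 52.1 CPM in the rest, and Pcna at 32.4 CPM, against 6.02 CPM. The S-phase genes were not used to choose any nucleus.

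**Figure D3:**
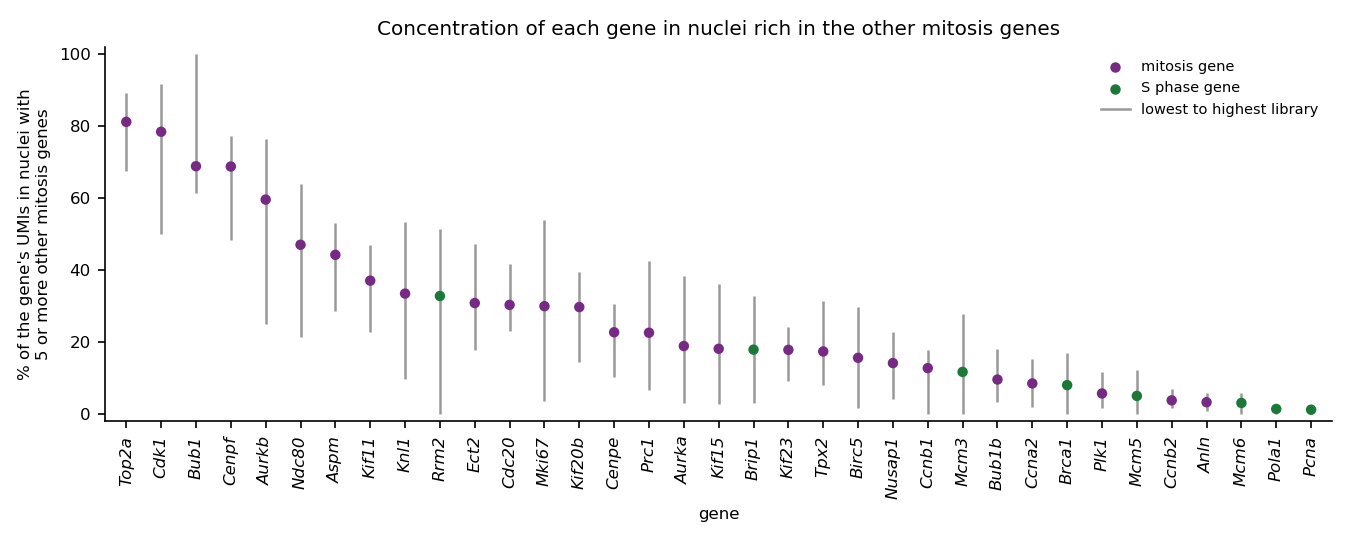
Share of each gene's UMIs (percent) that lay in nuclei with 5 or more of the other mitosis genes, all libraries together (points) and the range from the lowest to the highest library (lines). Top2a stands at 81.2% and Pcna at 1.16%, with Mki67 at 29.9% and a wide range over libraries.

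Genes of the same processes that were not on the list, and took no part in choosing nuclei, were higher in the mitosis-gene-rich nuclei than in the rest of the nuclei. A list of 40 other mitosis genes summed to 6481 CPM in mitosis-gene-rich against 379 CPM in other nuclei of the anaesthetised methanol library, 8052 against 443 CPM in the anaesthetised unfixed, 9035 against 409 CPM in the post-mortem methanol and 9497 against 475 CPM in the post-mortem unfixed. Of the 31 of these genes with 100 or more UMIs, 30 were at least 2-fold higher in the mitosis-gene-rich nuclei over all libraries and 29 were higher in each of the 4 libraries, against 28.7% and 9.96% of all 17908 genes with 100 or more UMIs. A gene could reach 100 UMIs through these nuclei. A list of 37 other S-phase genes summed to 3028 CPM in mitosis-gene-rich against 175 CPM in other nuclei of the anaesthetised methanol library, 2792 against 192 CPM in the anaesthetised unfixed, 3468 against 188 CPM in the post-mortem methanol and 1175 against 212 CPM in the post-mortem unfixed, and all 35 of those with 100 or more UMIs were at least 2-fold higher over all libraries, 14 of them in each library. The post-mortem unfixed library had 6 such nuclei and 24 UMIs of that list in them.

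The 7 S-phase genes of the main list other than Pola1 showed the same order, at 491 CPM in mitosis-gene-rich against 13.7 CPM in other nuclei of the anaesthetised methanol library, 506 against 12.6 CPM in the anaesthetised unfixed, 557 against 14.9 CPM in the post-mortem methanol and 97.9 against 14.7 CPM in the post-mortem unfixed. The post-mortem unfixed value rests on 2 UMIs. G1 cyclins, kinases and inhibitors, 13 genes that act before S phase, summed to 1284 CPM in mitosis-gene-rich against 228 CPM in other nuclei of the anaesthetised methanol library, 1637 against 248 CPM in the anaesthetised unfixed, 878 against 229 CPM in the post-mortem methanol and 1028 against 236 CPM in the post-mortem unfixed.

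With the looser limit of 3 mitosis genes, the 4 genes of each list with the most UMIs were as follows. Of the other mitosis genes, the condensin subunit Smc4 was at 107 CPM in these nuclei, against 6.14 CPM in the rest, the centromeric histone Cenpa at 85.6 CPM in these nuclei, against 2.02 CPM in the rest and the formin Diaph3 at 116 CPM in these nuclei, against 9.52 CPM in the rest. Cit, a cytokinesis kinase that neurons also make, was at 335 CPM in these nuclei, against 312 CPM in the rest. Of the other S-phase genes, the DNA glycosylase Neil3 was at 61.8 CPM in these nuclei, against 0.165 CPM in the rest, and the chromatin ATPase Atad2 at 96.6 CPM in these nuclei, against 22.0 CPM in the rest. The primase subunit Prim2 was at 51.3 CPM in these nuclei, against 23.9 CPM in the rest, and the helicase Blm at 43.9 CPM in these nuclei, against 19.2 CPM in the rest. Of the G1 genes, the cyclin Ccnd2 was at 133 CPM in these nuclei, against 45.0 CPM in the rest and its partner kinase Cdk6 at 48.1 CPM in these nuclei, against 6.13 CPM in the rest. Rb1, the retinoblastoma protein, was at 96.1 CPM in these nuclei, against 78.2 CPM in the rest, and its relative Rbl2 at 47.1 CPM in these nuclei, against 47.1 CPM in the rest. Neil3 had 78.5% of its UMIs in these nuclei. The looser set of 278 nuclei also held 45 excitatory-gated ones, which were read above as background. With the limit of 6 the median fold over the rest was 89.4 for the other mitosis genes, against 18.1 with the limit of 3. It was 18.1 against 4.73 for the other S-phase genes and 6.20 against 2.17 for the G1 genes. Near-equal values at the looser limit are therefore not read as levels in mitosis-gene-rich nuclei.

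The gate markers of the precursor and neuroblast classes were also higher in the mitosis-gene-rich nuclei. The 8 precursor gate markers summed to 1962 CPM in mitosis-gene-rich against 488 CPM in other nuclei of the anaesthetised methanol library, 2025 against 489 CPM in the anaesthetised unfixed, 3811 against 464 CPM in the post-mortem methanol and 3818 against 434 CPM in the post-mortem unfixed, and the 8 neuroblast gate markers to 1096 CPM in mitosis-gene-rich against 181 CPM in other nuclei of the anaesthetised methanol library, 1455 against 143 CPM in the anaesthetised unfixed, 599 against 166 CPM in the post-mortem methanol and 685 against 135 CPM in the post-mortem unfixed. Excitatory neuron gate markers were lower, at 139 CPM in mitosis-gene-rich against 668 CPM in other nuclei of the anaesthetised methanol library, 111 against 598 CPM in the anaesthetised unfixed, 0 against 461 CPM in the post-mortem methanol and 147 against 418 CPM in the post-mortem unfixed. The median depth of these nuclei was 2666.5, 1721, 2789 and 3021.5 UMIs in the anaesthetised methanol, anaesthetised unfixed, post-mortem methanol and post-mortem unfixed libraries.

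Nuclei were assigned to classes by gates of 8 marker genes each, none of them a gene of the list: a nucleus needed at least 3 markers of a class, and more than of any other class. Markers held out of the gates were used to check them. The 5 precursor check markers summed to 5196 to 6773 CPM over libraries in precursor-gated nuclei, against 501 to 731 CPM in mature-oligodendrocyte-gated ones. The neuroblast gate was less clean. Its 5 check markers (Dlx6os1, Tubb3, Nrep, Stmn1 and Sp9) summed to 423 to 1070.2 CPM in neuroblast-gated nuclei, against 449.6 to 558 CPM in inhibitory-gated ones, and these ranges overlap. Inhibitory check markers summed to 749 to 2562 CPM in the neuroblast gate, against 1864 to 2440.3 CPM in the inhibitory gate. The neuroblast gate is thus a mixed set, named by its gate only. Among its 10 leading genes by fold over other nuclei were its own markers Igfbpl1, Cd24a, Dlx1 and Dlx2, and also Top2a, Mki67, Neil3 and Esco2.

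Of the 124 mitosis-gene-rich nuclei, 34 were neuroblast-gated, 31 precursor-gated, 11 inhibitory-gated, 3 medium-spiny-neuron-gated, 3 mature-oligodendrocyte-gated, 1 astrocyte-gated, 1 microglia-gated and 40 in no gate. They were 20 of 128 (15.6%) in the anaesthetised methanol library, 9 of 74 (12.2%) in the anaesthetised unfixed, 4 of 74 (5.41%) in the post-mortem methanol and 1 of 37 (2.70%) in the post-mortem unfixed of the neuroblast-gated nuclei. They were 8 of 142 (5.63%) in the anaesthetised methanol library, 12 of 228 (5.26%) in the anaesthetised unfixed, 8 of 175 (4.57%) in the post-mortem methanol and 3 of 141 (2.13%) in the post-mortem unfixed of the precursor-gated nuclei, and every one of the 31 precursor-gated nuclei that held 3 or more mitosis genes also held 6 or more. The precursor intervals overlapped between all libraries, at 2.46 to 10.8%, 2.75 to 9.01%, 1.99 to 8.81% and 0.441 to 6.09% in the same order. The neuroblast intervals also overlapped, at 9.81 to 23.1%, 5.71 to 21.8%, 1.49 to 13.3% and 0.0684 to 14.2%. The 11 inhibitory-gated ones were all in the anaesthetised unfixed library (11 of 1694, 0.649%), while the anaesthetised methanol library held 0 of 1031 (a share of up to 0.291% is allowed), the post-mortem methanol 0 of 1630 (0.184%) and the post-mortem unfixed 0 of 1534 (0.196%).

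**Figure D4:**
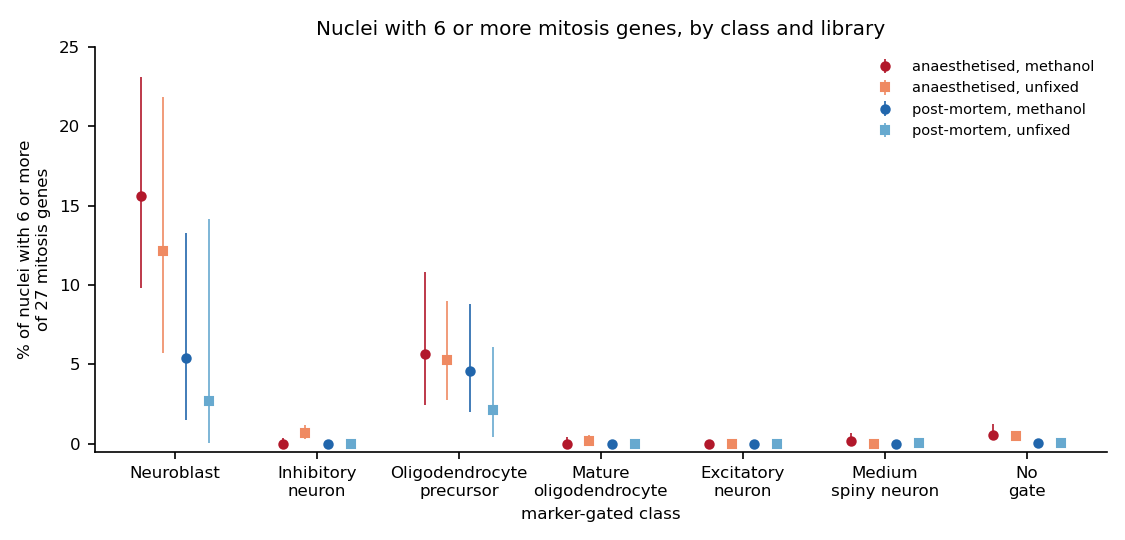
Share of nuclei of each marker-gated class (percent) that held 6 or more of the 27 mitosis genes, by library, with exact 95% Clopper-Pearson intervals. Neuroblast-gated nuclei reach 15.6% and precursor-gated nuclei 5.63%, while excitatory-gated nuclei are at 0 in every library. The limit of 6 was chosen after the distribution was seen, so this 0 is not an independent check of it.

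Levels by class followed the same division for most of the list. By mean CPM over the 4 libraries, among gated classes with at least 100000 UMIs in every library, 17 genes were highest in precursor-gated and 15 in neuroblast-gated nuclei, with Anln and Pcna highest in mature-oligodendrocyte-gated and Mcm3 in microglia-gated nuclei. The 26 mitosis genes other than Anln summed to 541 CPM in the anaesthetised methanol library, 727 in the anaesthetised unfixed, 497 in the post-mortem methanol and 553 in the post-mortem unfixed in precursor-gated nuclei. In neuroblast-gated nuclei they summed to 752 CPM in the anaesthetised methanol library, 784 in the anaesthetised unfixed, 189 in the post-mortem methanol and 288 in the post-mortem unfixed. Mature-oligodendrocyte-gated nuclei had 33.2 CPM in the anaesthetised methanol library, 57.9 in the anaesthetised unfixed, 29.9 in the post-mortem methanol and 45.9 in the post-mortem unfixed, and excitatory-gated nuclei 29.6 CPM in the anaesthetised methanol library, 37.3 in the anaesthetised unfixed, 32.0 in the post-mortem methanol and 37.2 in the post-mortem unfixed. The precursor sums lay between 497 and 727 CPM, while both anaesthetised neuroblast sums were above both post-mortem ones.

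Several genes had most of their UMIs in classes that do not divide. Such a share also reflects the UMIs of all genes in a class. In the anaesthetised methanol, anaesthetised unfixed, post-mortem methanol and post-mortem unfixed libraries these were 27649897, 12906485, 19923874 and 11524441 in excitatory-gated nuclei. Medium-spiny-neuron-gated nuclei had 9080719, 8111857, 14625606 and 13012839, mature-oligodendrocyte-gated 1685745, 1883477, 2509960 and 2179095, and all kept nuclei 59659789, 51823037, 63884292 and 50967320. Anln had 75.6% of its UMIs in mature-oligodendrocyte-gated nuclei, where it was at 328 CPM in the anaesthetised methanol library, 271 in the anaesthetised unfixed, 331 in the post-mortem methanol and 285 in the post-mortem unfixed. Brca1 had 51.6% of its UMIs in medium-spiny-neuron-gated nuclei, at 7.05 CPM in the anaesthetised methanol library, 7.03 in the anaesthetised unfixed, 8.07 in the post-mortem methanol and 8.91 in the post-mortem unfixed. In excitatory-gated nuclei Brca1 was lower, at 0.687 CPM in the anaesthetised methanol library, 1.16 in the anaesthetised unfixed, 0.753 in the post-mortem methanol and 1.39 in the post-mortem unfixed. Ccnb1 had 53.9% of its UMIs in excitatory-gated nuclei, at 1.19 CPM in the anaesthetised methanol library, 1.01 in the anaesthetised unfixed, 1.91 in the post-mortem methanol and 0.434 in the post-mortem unfixed. There both methanol values were higher than their unfixed partners, from 33 UMIs in the methanol and 13 in the unfixed library of the anaesthetised pair and 38 UMIs in the methanol and 5 in the unfixed library of the post-mortem pair.

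Mki67 had 25.2% of its UMIs in medium-spiny-neuron-gated nuclei, at 1.54 CPM in the anaesthetised methanol library, 4.68 in the anaesthetised unfixed, 1.78 in the post-mortem methanol and 5.07 in the post-mortem unfixed. In all kept nuclei it was at 2.36, 4.26, 1.03 and 2.81 CPM in the same order. Only in the anaesthetised methanol library was it lower in medium-spiny-neuron-gated nuclei. Top2a, the other proliferation marker, was at 0.881 CPM in the anaesthetised methanol library, 0.247 in the anaesthetised unfixed, 0.137 in the post-mortem methanol and 0.538 in the post-mortem unfixed there, from 8, 2, 2 and 7 UMIs in the same order. The low Mki67 level in these neurons was thus higher in unfixed nuclei of both pairs, and Top2a did not show this order, though its anaesthetised unfixed and post-mortem methanol counts were below the floor of 3 UMIs.

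Whether the list marked the neuroblast gate was tested on UMIs summed per library and class, with the library as a block, against inhibitory-gated nuclei. Of 30 genes with 20 or more UMIs, 26 were higher and 0 lower in neuroblast-gated nuclei (edgeR's quasi-likelihood test with Benjamini-Hochberg adjustment over 17221 genes, adjusted p under 0.05), against 2.53% of all genes higher and 4.09% lower. A gene could reach 20 UMIs through the neuroblast-gated nuclei, as Bub1 did with 17 UMIs there and 7 in inhibitory-gated nuclei, so the share of tested genes that were higher is not read further. Top2a rose most, with 131, 105, 40.5 and 25.1 CPM in the neuroblast-gated nuclei of the anaesthetised methanol, anaesthetised unfixed, post-mortem methanol and post-mortem unfixed libraries, against 0.102, 5.17, 0 and 0.131 CPM in the inhibitory-gated nuclei of the same libraries. Every neuroblast-gated value lay above every inhibitory-gated one, and the log2 fold change was 6.35 ± 0.39 (SE, adjusted p = 3.01e-57 by edgeR). Mki67 had 67.7, 109.5, 5.79 and 31.3 CPM in the neuroblast-gated nuclei of the anaesthetised methanol, anaesthetised unfixed, post-mortem methanol and post-mortem unfixed libraries, against 0.714, 3.04, 0.315 and 2.09 CPM in the inhibitory-gated nuclei of the same libraries. Again the groups did not overlap, and the log2 fold change was 5.01 ± 0.45 (adjusted p = 1.57e-26 by edgeR). Both genes were lower in the neuroblast-gated nuclei of the post-mortem libraries than in those of the anaesthetised ones.

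The other kinetochore genes that passed had log2 fold changes of Cenpf 4.73 ± 0.55, Cenpe 3.07 ± 0.50, Bub1 5.17 ± 0.81, Knl1 3.59 ± 0.44 and Ndc80 5.18 ± 0.65 (± SE, adjusted p between 1.61e-15 and 5.67e-08 by edgeR). The spindle genes had Kif11 4.03 ± 0.48, Kif15 3.16 ± 0.42, Kif20b 4.23 ± 0.51, Kif23 2.37 ± 0.41, Nusap1 2.09 ± 0.38, Tpx2 2.50 ± 0.54, Prc1 2.38 ± 0.50 and Aspm 4.09 ± 0.58 (adjusted p between 1.39e-14 and 0.000155 by edgeR), where Tpx2 activates Aurka on the spindle. The cyclin, kinase and passenger genes that passed were Ccna2 2.19 ± 0.72, Aurka 3.12 ± 0.65 and Birc5 2.65 ± 0.64 (adjusted p between 6.24e-05 and 0.038 by edgeR). The cytokinesis genes were Ect2 3.24 ± 0.58 and Anln 2.99 ± 0.44 (adjusted p between 1.34e-09 and 1.84e-06 by edgeR). Of the S-phase genes, 6 passed, with Mcm5 3.67 ± 0.88, Mcm6 1.71 ± 0.50, Rrm2 3.96 ± 0.72, Pola1 0.52 ± 0.16, Brca1 2.61 ± 0.54 and Brip1 3.41 ± 0.56 (adjusted p between 8.2e-08 and 0.0162 by edgeR). The smallest of these changes was that of Pola1, with 156, 88.5, 94.6 and 62.6 CPM in the neuroblast-gated nuclei of the anaesthetised methanol, anaesthetised unfixed, post-mortem methanol and post-mortem unfixed libraries, against 69.5, 65.2, 72.6 and 56.5 CPM in the inhibitory-gated nuclei of the same libraries, and these values overlap between the classes. Bub1b (1.43 ± 0.55, adjusted p = 0.112), Ccnb2 (-0.05 ± 0.48, adjusted p = 0.984), Plk1 (0.18 ± 1.23, adjusted p = 0.979) and Pcna (0.92 ± 0.47, adjusted p = 0.307) did not pass by edgeR. Cdk1, Ccnb1, Cdc20, Aurkb and Mcm3 had under 20 UMIs in these nuclei and were not tested.

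The 26 calls were made again with some nuclei left out. Without the nuclei that held 6 or more mitosis genes, 3 genes remained higher by edgeR, Cenpf, Mki67 and Top2a, of 26 that could still be tested. This alternative was added after the data were seen and takes out nuclei by the UMIs of the genes themselves. A loss of calls was thus built into it. Of the genes that remained, Cenpf was not called higher by DESeq2 with those nuclei kept. It had 39, 14, 1 and 0 UMIs in the neuroblast-gated nuclei of the anaesthetised methanol, anaesthetised unfixed, post-mortem methanol and post-mortem unfixed libraries. The post-mortem counts were below the floor of 3 UMIs. Without the anaesthetised methanol library, 14 of 28 tested genes were higher. That library held 128 of the neuroblast-gated nuclei, and the lost calls were Aurka, Birc5, Brca1, Ccna2, Cenpe, Mcm6, Pola1, Prc1, Rrm2 and Tpx2.

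Oligodendrocyte-precursor-gated nuclei were tested in the same way against mature-oligodendrocyte-gated nuclei. Of 24 genes with 20 or more UMIs, 20 were higher in precursors, against 19% of all 13865 genes, and 1 was lower, against 17.8%. A gene could reach 20 UMIs through the precursors alone, so the share of tested genes that were higher is not read further. Top2a had 79.6, 111, 83.5 and 64.9 CPM in the precursor-gated nuclei of the anaesthetised methanol, anaesthetised unfixed, post-mortem methanol and post-mortem unfixed libraries, against 0.593, 3.72, 0.797 and 0 CPM in the mature-oligodendrocyte-gated nuclei of the same libraries. The classes did not overlap, with a log2 fold change of 5.90 ± 0.37 (adjusted p = 5.72e-11 by edgeR's quasi-likelihood test with Benjamini-Hochberg adjustment). Mki67 rose less, with 25.3, 28.3, 5.83 and 6.18 CPM in the precursor-gated nuclei of the anaesthetised methanol, anaesthetised unfixed, post-mortem methanol and post-mortem unfixed libraries, against 0.593, 3.19, 0 and 1.38 CPM in the mature-oligodendrocyte-gated nuclei of the same libraries, and a log2 fold change of 3.50 ± 0.62 (adjusted p = 0.000114 by edgeR). Its precursor-gated values in the post-mortem libraries rest on 3 and 2 UMIs.

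The other kinetochore genes that passed were Cenpf 5.10 ± 0.47, Cenpe 2.68 ± 0.32, Bub1b 2.69 ± 0.74, Knl1 3.51 ± 0.40 and Ndc80 3.68 ± 0.63 on the log2 scale (± SE, adjusted p between 2.07e-08 and 0.00634 by edgeR). The spindle genes were Kif11 3.84 ± 0.45, Kif15 3.20 ± 0.48, Kif20b 2.64 ± 0.44, Kif23 4.46 ± 0.54, Nusap1 3.02 ± 0.41, Tpx2 3.41 ± 0.46, Prc1 3.09 ± 0.41 and Aspm 4.29 ± 0.59 (adjusted p between 7.27e-07 and 5.7e-05 by edgeR). The cyclin, kinase and passenger genes were Ccnb2 2.31 ± 0.48, Aurka 2.57 ± 0.62 and Birc5 4.18 ± 0.88 (adjusted p between 0.00064 and 0.0023 by edgeR). Ect2 rose by 4.38 ± 0.45 (adjusted p = 8.46e-08) and Brca1 by 2.36 ± 0.68 (adjusted p = 0.00891) by edgeR. Of the replication genes, Mcm6 (0.62 ± 0.51, adjusted p = 0.381), Pcna (-0.42 ± 0.44, adjusted p = 0.517) and Pola1 (0.41 ± 0.16, adjusted p = 0.0591) did not pass by edgeR.

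Anln was the exception in direction. It had 25.3, 30.8, 9.71 and 18.5 CPM in the precursor-gated nuclei of the anaesthetised methanol, anaesthetised unfixed, post-mortem methanol and post-mortem unfixed libraries, against 328, 271, 331 and 285 CPM in the mature-oligodendrocyte-gated nuclei of the same libraries. Every precursor-gated value was below every mature-oligodendrocyte-gated one, and the log2 fold change was -4.02 ± 0.22 (adjusted p = 8.8e-12 by edgeR). Ect2, which acts with Anln at the cleavage furrow, had 21.7, 30.8, 27.2 and 40.2 CPM in the precursor-gated nuclei of the anaesthetised methanol, anaesthetised unfixed, post-mortem methanol and post-mortem unfixed libraries, against 1.19, 1.06, 1.2 and 1.38 CPM in the mature-oligodendrocyte-gated nuclei of the same libraries, so the cytokinesis genes went opposite ways.

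In the precursor test 11 genes were under 20 UMIs. Bub1, Cdk1 and Aurkb had 16, 18 and 11 UMIs in precursor-gated nuclei, against 0 in the mature-oligodendrocyte-gated nuclei of all libraries. Cdc20 had 13 UMIs in precursor-gated against 5 in mature-oligodendrocyte-gated nuclei, Ccna2 10 against 1 and Rrm2 7 against 1, while Mcm3 had 1 against 14. These are raw counts from classes of unlike totals. Precursor-gated nuclei held 552556, 389020, 514995 and 323705 UMIs of all genes in the anaesthetised methanol, anaesthetised unfixed, post-mortem methanol and post-mortem unfixed libraries. Mature-oligodendrocyte-gated nuclei held 1685745, 1883477, 2509960 and 2179095 in the same order. Without the nuclei that held 6 or more mitosis genes, 0 of 11 testable genes were higher by edgeR and 0 at an unadjusted p under 0.05, and Anln was still lower. Of the 20 genes called higher, 7 could still be tested, and 4 of those had a log2 fold change below 0. None of these was lower at an unadjusted p under 0.05 by edgeR. Here too the nuclei were taken out by the UMIs of the genes themselves, so a loss of calls was built in.

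**Figure D5:**
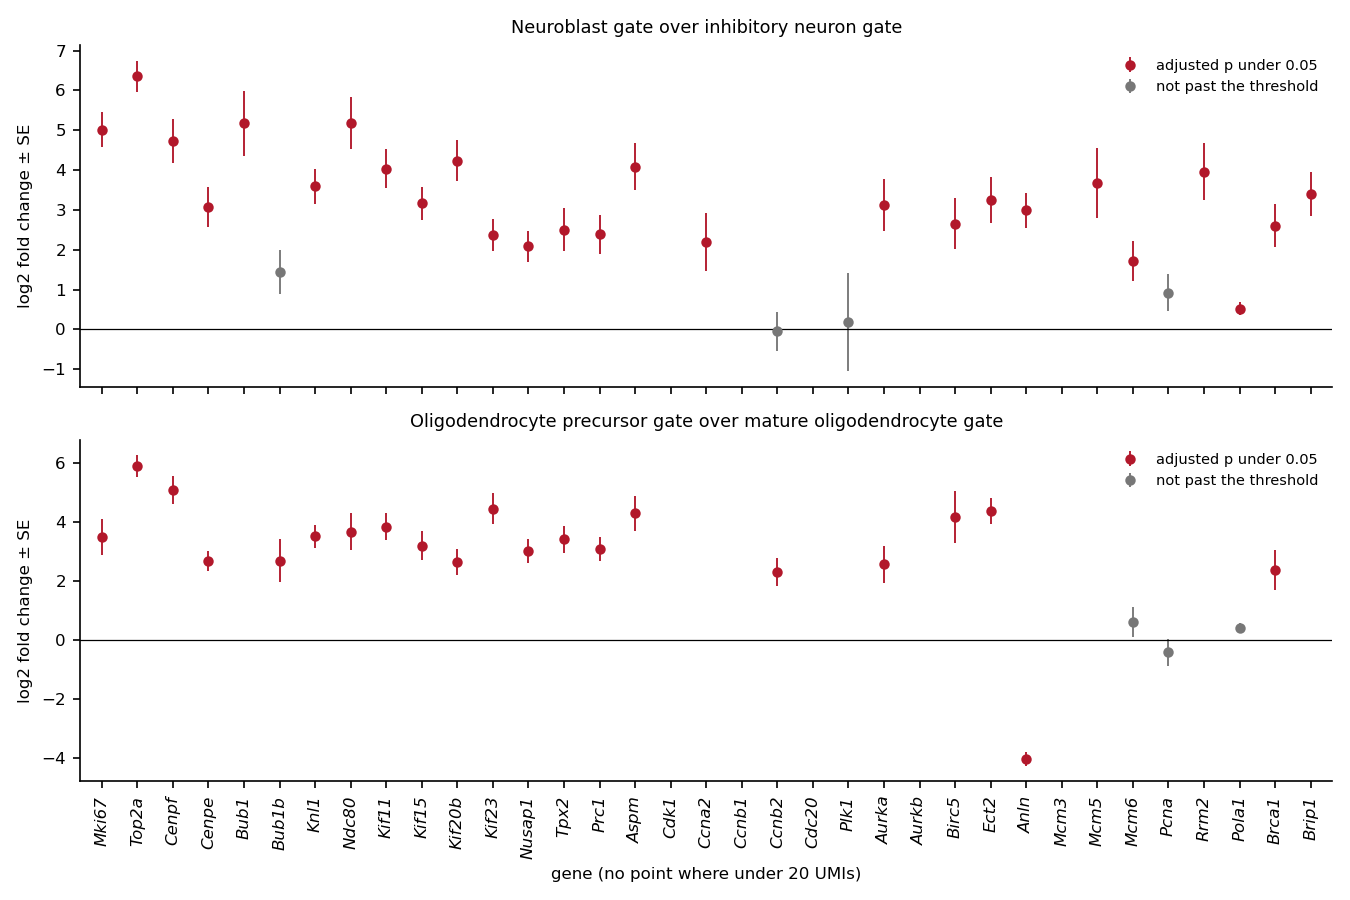
Log2 fold change with its standard error for each gene, neuroblast-gated over inhibitory-gated nuclei (above) and precursor-gated over mature-oligodendrocyte-gated nuclei (below), by edgeR. Red points passed an adjusted p of 0.05 and grey points did not. Top2a is at 6.35 and 5.90, and Anln is at 2.99 above and -4.02 below.

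The other lists were counted in the same 2 tests. Of 33 other mitosis genes tested in neuroblast-gated nuclei, 24 were higher and 1 was lower, Cit, and of 26 tested in precursor-gated nuclei 23 were higher and 0 lower by edgeR. Of 35 other S-phase genes, 18 were higher and 0 lower in neuroblast-gated nuclei. Of 26 tested in precursor-gated nuclei, 7 were higher and Prim1, a primase subunit, was lower. Of the G1 genes, Rbl1, Cdk6, Ccnd2 and Cdkn1b were higher in neuroblast-gated nuclei of 10 tested. In precursor-gated nuclei, of 12 tested, Rbl1, Cdk6, Ccnd2, Ccnd1 and Cdk2 were higher and Cdkn1b, Rbl2, Rb1 and Ccnd3 were lower. Ccnd1, the cyclin that answers growth factor signals, averaged 69.9 CPM in precursor-gated and 2.66 CPM in mature-oligodendrocyte-gated nuclei, a log2 fold change of 4.59 ± 0.30 (adjusted p = 1.37e-10 by edgeR). Cdkn1b, which holds cells out of the cycle, averaged 18.4 CPM in precursor-gated and 39.8 CPM in mature-oligodendrocyte-gated nuclei, a log2 fold change of -1.31 ± 0.28 (adjusted p = 0.000898 by edgeR). The background shares of these tests are those given above.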

How the data were processed

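Nuclei were captured with a droplet 3′ kit (SeekOne DD), per the labels' protocols, and the authors deposited a matrix of raw UMI counts per gene and barcode for each of the 4 libraries. Per the submitters' processing notes, reads were placed on mm10. For the alignment and counting, the tools, annotation and strand setting are not given in the sources used here. Gene positions came from GENCODE M21 and promoters from RefSeq.

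From these counts, barcodes with at least 500 UMIs, at least 300 genes and at most 5% mitochondrial UMIs were kept, and doublets called by Scrublet (expected rate 6%, scanpy 1.11.5) were removed, which was 9.11 to 15.5% of the barcodes that passed. Barcodes over 100000 UMIs were left out after they were seen: 7 barcodes of the post-mortem methanol library, with 2591303 UMIs. Kept nuclei held 50967320 to 63884292 UMIs per library. Ratios between libraries had 0.5 counts added and exact conditional 95% intervals, with no test. Shares have exact Clopper-Pearson intervals, and a count of 0 was given the limit that 3 counts allow. UMIs do not make nuclei of 1 library independent, so intervals and limits cover counting error only.

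Class tests used UMIs summed per library and class in edgeR 4.0.16 (R 4.3.3, quasi-likelihood test, TMM scaling, library as block, at least 20 UMIs over the 8 sums, Benjamini-Hochberg adjustment over all genes tested, 3 residual degrees of freedom). The 2 classes of a library come from the same nuclei suspension, which is why the library was the block. The labels do not say that the libraries came from separate animals, so p-values measure only the spread between these libraries, which also differ in harvest and fixation. The edgeR test was checked on simulated counts. These were drawn independently for each sum, so the check does not cover signal held by few nuclei. Alternatives were DESeq2 1.42.0, other scaling, filters and gates, and each library left out. Python 3.11.15 was used for the rest.

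The genes, lists and tests were chosen with earlier results of these data known. Genes given in full were the up to 4 with the most UMIs per role, those at least 2-fold different in both pairs and those called in a class test. From each other list, the up to 4 genes with the most UMIs in nuclei with 3 or more mitosis genes were named, and genes called in a short list were named after their values were seen. A further set of check markers is not reported here.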

Additional observations from a re-analysis of the deposited data

Results flagged for a closer look

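Top2a differed in direction between the 2 fixation pairs. Its log2 ratio of methanol over unfixed was -0.42 in the anaesthetised pair (3.27 CPM after methanol, against 4.38 CPM unfixed) and 0.55 in the post-mortem pair (1.33 CPM after methanol, against 0.903 CPM unfixed). Each pair was 1 library against 1, and the difference between the pairs was not tested. Outside nuclei with 5 or more of the other mitosis genes, Top2a was at 0.354 CPM after methanol, against 1.01 CPM unfixed, in the anaesthetised pair, and at 0.251 CPM after methanol, against 0.294 CPM unfixed, in the post-mortem pair.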

How the results depend on the processing

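The share of nuclei past the limit on mitosis genes followed the limit. In the anaesthetised methanol, anaesthetised unfixed, post-mortem methanol and post-mortem unfixed libraries it was 4.92, 2.10, 3.29 and 2.08% with 2 genes, 0.675, 0.603, 0.173 and 0.0727% with 4, 0.631, 0.537, 0.163 and 0.0485% with 5, 0.529, 0.444, 0.153 and 0.0485% with 6, and 0.526, 0.519, 0.165 and 0.0556% with 3 genes after thinning to 1000 UMIs. With 2 genes the harvest order did not hold, since the post-mortem methanol share was above the anaesthetised unfixed one. Keeping called doublets gave 1.71% in the anaesthetised methanol and 0.399% in the post-mortem unfixed library with 3 genes. Keeping the barcodes over 100000 UMIs made Cenpf the 3rd gene past 2-fold between harvests. It also raised the post-mortem methanol share with 6 genes from 0.153 to 0.204%.

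The number of genes higher in neuroblast-gated than in inhibitory-gated nuclei was 13 of 16 tested with a filter of 100 UMIs, 23 with DESeq2 and 14 to 24 with each library left out, lowest without the anaesthetised methanol library. For precursor-gated over mature-oligodendrocyte-gated nuclei it was 5 of 7 tested with a filter of 100 UMIs, 20 with DESeq2 and 17 to 19 with each library left out. The stricter filter and the left-out libraries leave fewer genes to test. In the neuroblast comparison DESeq2 lost Ccna2, Cenpf and Pola1. Ccna2 was also lost with no filter but 1 UMI, with a gate of 2 markers and with a lead of 2 markers. The same gene was lost with doublets kept and with each library left out, and was kept with a gate of 4 markers and with scaling by total UMIs. Both classes of a library come from that library, so the libraries pair them: without the replicate block 22 genes were higher in the neuroblast and 20 in the precursor comparison, and Ccna2, Nusap1, Pola1 and Prc1 were the calls lost. Scaling by total UMIs gave 26 and 21 higher genes. It moved the median log2 fold change of all genes from -0.10 to 0.05 in the neuroblast and from -0.08 to 0.07 in the precursor comparison, and the split of all calls from 435 higher and 704 lower to 665 and 398, and from 2640 and 2466 to 2970 and 1878.

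Without nuclei with 6 or more mitosis genes, chosen by the UMIs of the genes themselves after the data were seen, 3 genes remained higher in the neuroblast and 0 in the precursor comparison. The log2 fold change then turned to -0.75 for Kif23, -0.27 for Nusap1, -1.63 for Tpx2, -0.34 for Prc1, -1.01 for Birc5, -0.11 for Pola1 and -5.70 for Brip1 in the neuroblast comparison. It turned to -0.53 for Cenpe, -0.63 for Kif20b, -0.48 for Prc1 and -0.30 for Ccnb2 in the precursor comparison. At an unadjusted p under 0.05 by edgeR, 0 of 26 tested genes were lower in the neuroblast comparison. In the precursor comparison only Anln was. The turned values are therefore not read as lower levels. Depth limited Cdk1, Aurkb, Mcm3, Bub1 and Cdc20, each with under 100 UMIs in all.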
